A study of Mus musculus with 40 samples.

Results

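Atp11a, Cib3, Scube3, Pak3 and Cyb561 are 5 of the 55487 genes in the count table of this mouse liver series. They were chosen by their measured levels, as the less studied genes among those most clearly higher in livers lacking hepatocyte Nampt than in control livers, so this difference is given below as a description, with no test. HNKO mice were homozygous for a floxed Nampt allele (fl/fl) and carried the Alb-Cre transgene (+/−), whose albumin promoter is active in hepatocytes. Their wild-type (WT) littermates carried the floxed allele without Cre. All animals were adult females on the C57BL/6JBomTac background, and all were fed a purified diet for 3, 6, 12 or 21 days. The labels call these numbers ages, and the study's methods call them days of feeding. Whole liver was sequenced as rRNA-depleted total RNA, 1 library per mouse.

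The 38 libraries used held 5, 4, 5 and 5 WT livers and 5, 5, 6 and 3 HNKO livers at days 3, 6, 12 and 21. Total counts ranged from 16151037 to 64181492 per library. Libraries 17 and 18, from HNKO livers at day 21, failed quality control in the study and are given apart. Library numbers in the labels form a series from 1 to 21 and a series from 22 to 41, and the 3 HNKO livers used at day 21 all came from the later series. Counts over the whole Nampt gene ranged from 4.92 to 6.36 log2 CPM (the logarithm of counts scaled to library size) in HNKO and from 5.84 to 7.28 in WT livers, with overlap between genotypes at day 6 and at no other day. The summed level of 8 hepatocyte markers was 108359 to 163110 CPM in WT and 68594 to 138057 CPM in HNKO livers.

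The 5 genes have unlike functions. Atp11a encodes a P4-ATPase flippase, which moves phospholipids from the outer to the inner leaflet of the plasma membrane, and scramblases work against this asymmetry. Cib3 encodes a small protein of the calcium- and integrin-binding (CIB) family. Scube3 encodes a secreted glycoprotein with EGF-like and CUB domains, and SCUBE proteins take part in the release and reception of hedgehog ligands. Pak3 encodes a p21-activated kinase, a serine/threonine kinase that acts downstream of the small GTPases Rac and Cdc42 and is best known in neurons. Cyb561 encodes a transmembrane cytochrome that passes electrons from ascorbate across vesicle membranes. Spp1 (osteopontin, a secreted matricellular protein) and Col1a1 (a chain of type I collagen, made by activated stellate cells) served as readouts of the injured liver.

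In GRCm38, Atp11a (ENSMUSG00000031441.15) lies on chromosome 8 from 12757014 to 12868728 on the plus strand, and Cib3 (ENSMUSG00000074240.4) on chromosome 8 from 72204335 to 72212837 on the minus strand. Scube3 (ENSMUSG00000038677.14) lies on chromosome 17 from 28142141 to 28174854 on the plus strand, Pak3 (ENSMUSG00000031284.16) on chromosome X from 143518591 to 143797796 on the plus strand, and Cyb561 (ENSMUSG00000019590.16) on chromosome 11 from 105933702 to 105953336 on the minus strand. All are protein coding. Of the 51-base stretches of their transcripts, 2.71% of Atp11a, 1.66% of Scube3 and 8.66% of Cyb561 also occurred in transcripts of other genes or of antisense partners, and none of Cib3 or Pak3 did. The overlapping genes lie on the opposite strand and had median counts between 2 and 10.5, but whether counting used strand is not given in the sources used here.

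Because Cib3, Scube3 and Pak3 varied together between HNKO livers (below), their promoters are shown from 250 bases before to 50 after the start, 5′ to 3′ on the strand of the gene, from RefSeq on GRCm38.p6, where 4 of the 5 genes matched. The regions are chr8:72212788-72213087 (minus strand) for Cib3, chr17:28142059-28142358 (plus strand) for Scube3 and chrX:143518341-143518640 (plus strand) for the most upstream of 3 Pak3 promoters. Capitals mark matches to the motifs searched on either strand.
Cib3: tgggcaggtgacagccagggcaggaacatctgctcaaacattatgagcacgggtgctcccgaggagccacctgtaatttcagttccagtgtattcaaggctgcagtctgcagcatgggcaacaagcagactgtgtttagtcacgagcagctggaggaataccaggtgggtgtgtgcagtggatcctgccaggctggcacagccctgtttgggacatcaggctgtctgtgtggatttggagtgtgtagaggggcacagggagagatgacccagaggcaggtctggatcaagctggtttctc
Scube3: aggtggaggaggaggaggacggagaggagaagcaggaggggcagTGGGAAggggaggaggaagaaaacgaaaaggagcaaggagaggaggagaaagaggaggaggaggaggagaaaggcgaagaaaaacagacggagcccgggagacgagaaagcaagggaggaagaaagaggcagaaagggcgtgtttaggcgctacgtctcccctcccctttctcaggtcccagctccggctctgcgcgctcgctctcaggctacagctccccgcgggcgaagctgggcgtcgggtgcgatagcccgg
Pak3: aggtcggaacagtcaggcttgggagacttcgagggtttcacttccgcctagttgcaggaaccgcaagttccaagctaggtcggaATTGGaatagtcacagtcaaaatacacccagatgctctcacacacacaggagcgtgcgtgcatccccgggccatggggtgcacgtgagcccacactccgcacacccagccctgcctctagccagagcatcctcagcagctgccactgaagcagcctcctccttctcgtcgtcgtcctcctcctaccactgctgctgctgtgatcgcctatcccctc
Of 32851 promoters in the table, the AP-1 motif TGANTCA was in 7.81%, the TEAD motif GGAATG in 14.7%, the STAT motif TTCNNNGAA in 8.3% and the RBPJ motif TGGGAA in 25.6%. The TATA box was searched as TATAAA (13.6%), and the remaining motif was CCAAT (37.4%). The Cib3 promoter held no match, that of Scube3 held 1 RBPJ match at position -206 and the Pak3 promoter shown held 1 CCAAT match on the minus strand at position -166. The Pak3 promoters not shown each held an RBPJ match, and one of them also held a TEAD and a CCAAT match. The Atp11a promoter also held no match, and its GC content of 76.0% was above that of 96.9% of promoters, compared with 55.7% for Cib3, 62.0% for Scube3 and 59.0% for Pak3.

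Corrected for exon length, Cib3 was the most abundant of the 5 genes in HNKO livers and lay below Atp11a and Cyb561 in WT livers. Its median was 10.8 RPKM over the 19 HNKO livers (3.42 to 52.5) and 0.215 RPKM over the 19 WT livers (0.0877 to 2.11). Atp11a had a median of 4.31 RPKM in HNKO and 1.64 in WT livers, and Cyb561 of 3.18 and 1.20. Scube3 (0.251 and 0.0594 RPKM) and Pak3 (0.0855 and 0.0122 RPKM) stayed low in both genotypes. Pak3 counts were 10 to 40 in HNKO and 0 to 7 in WT libraries, with 2 WT libraries at 0, so its WT level is near the limit of detection at this depth.

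**Figure D1:**
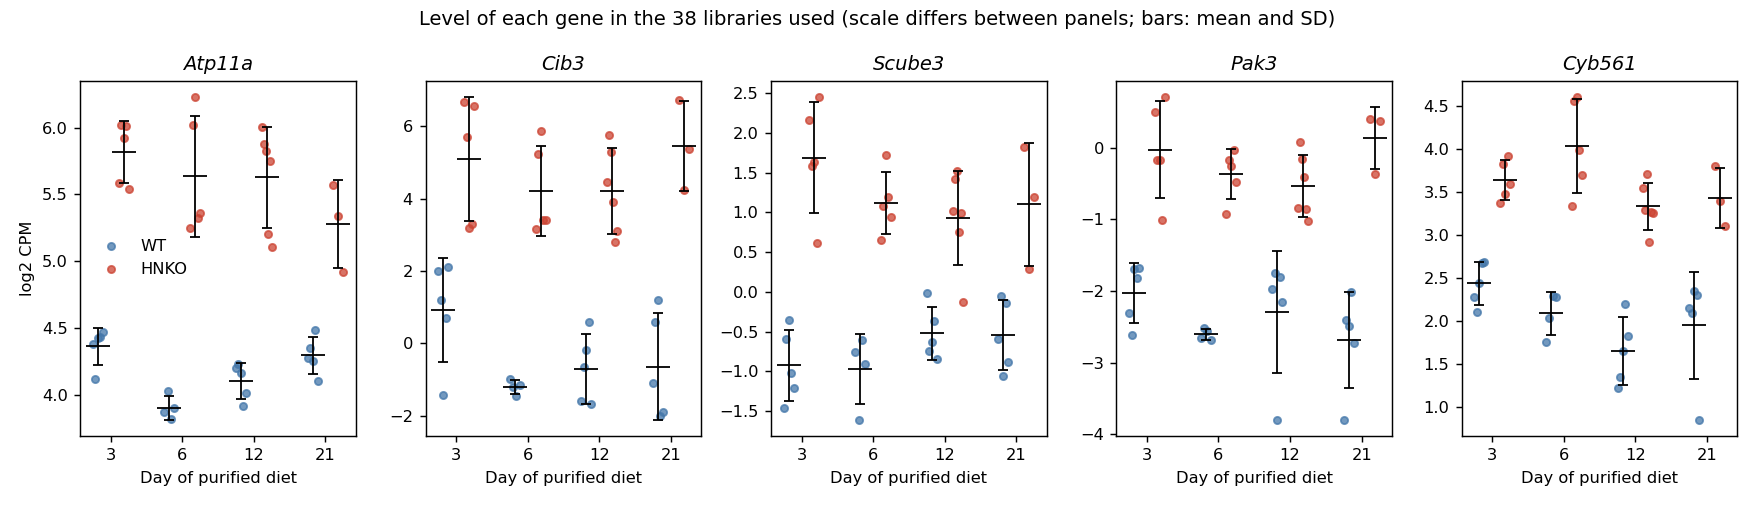
Level of each gene in log2 CPM (vertical axis, own scale per gene) by day of purified diet (horizontal axis) in WT (blue) and HNKO (red) livers, with 1 point per library and black bars for mean and SD. Every HNKO point lies above the WT points of its day except 1 Scube3 point at day 12.

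Cib3 had the widest gap between genotypes and, pooled over days, the widest spread within them (SD 1.37 in HNKO and 1.17 in WT livers), although its 4 WT livers at day 6 were close together (SD 0.196). At day 3, the HNKO libraries were at 3.20, 3.30, 5.70, 6.55 and 6.68 log2 CPM and the WT libraries at -1.44, 0.70, 1.20, 2.01 and 2.11. At day 6, HNKO levels were 3.17, 3.41, 3.42, 5.23 and 5.87 log2 CPM, and WT levels -1.46, -1.21, -1.15 and -0.98. The highest HNKO liver of these days was thus more than 2 units above the lowest on the log2 scale, and the lowest was still above every WT liver. At day 12, HNKO livers ranged from 2.80 to 5.75 log2 CPM with WT livers from -1.67 to 0.59, and at day 21 the HNKO levels were 4.24, 5.38 and 6.73 with WT levels from -2.01 to 1.21. The fitted log2 fold change of HNKO over WT was 4.39 (SE 0.76), 6.09 (SE 1.04), 5.17 (SE 0.84) and 5.76 (SE 0.85) at days 3, 6, 12 and 21, equal to between 21.0-fold and 68.0-fold. One library moved the value at day 21 by over 1.5 times in fold, to a log2 of 4.91 without HNKO library 37 and of 6.62 without WT library 21.

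Atp11a was higher by less than Cib3 and also varied less between livers. HNKO livers were at 5.54, 5.59, 5.92, 6.01 and 6.02 log2 CPM at day 3 against 4.12 to 4.47 in WT, and at 5.25, 5.32, 5.36, 6.02 and 6.23 at day 6 against 3.81 to 4.03. They ranged from 5.10 to 6.00 at day 12 against 3.92 to 4.23 in WT, and were at 4.92, 5.33 and 5.57 at day 21 against 4.10 to 4.49. No HNKO liver overlapped a WT liver of any day. The log2 fold change was 1.47 (SE 0.17), 1.80 (SE 0.19), 1.56 (SE 0.16) and 1.0 (SE 0.19), and the within-day SD pooled over days was 0.36 in HNKO and 0.13 in WT livers.

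Cyb561, whose product belongs to the electron-transferring cytochromes, had its highest HNKO levels at day 6. These were 3.34, 3.70, 3.99, 4.56 and 4.60 log2 CPM, whereas the 4 WT livers were at 1.75, 2.03, 2.27 and 2.29. At the other days HNKO livers ranged from 3.37 to 3.92 (day 3), 2.92 to 3.71 (day 12) and 3.10 to 3.80 (day 21), and WT livers from 2.10 to 2.68, 1.21 to 2.20 and 0.85 to 2.34. The genotypes did not overlap at any day. Its log2 fold change was 1.21 (SE 0.23), 2.04 (SE 0.26), 1.68 (SE 0.23) and 1.43 (SE 0.26) at days 3, 6, 12 and 21.

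Scube3 levels were highest in HNKO livers at day 3, at 0.61, 1.58, 1.63, 2.16 and 2.45 log2 CPM, with WT livers between -1.46 and -0.35. At day 12 the HNKO livers were at -0.13, 0.75, 1.0, 1.02, 1.42 and 1.52 and the WT livers between -0.84 and -0.01. The lowest of these, library 36, was below the highest WT liver, which was the only overlap among the 5 genes. Log2 fold changes of Scube3 were 2.88 (SE 0.36), 2.24 (SE 0.39), 1.59 (SE 0.33) and 1.87 (SE 0.37). For Pak3, the levels at day 21 were -0.36, 0.38 and 0.40 log2 CPM in HNKO and -3.80 to -2.01 in WT livers, and at day 12 they were -1.02 to 0.08 and -3.80 to -1.75. Pak3 differed by a log2 fold change of 2.43 (SE 0.41), 2.90 (SE 0.51), 1.96 (SE 0.40) and 3.42 (SE 0.46) at days 3, 6, 12 and 21, each relative to a few WT counts.

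**Figure D2:**
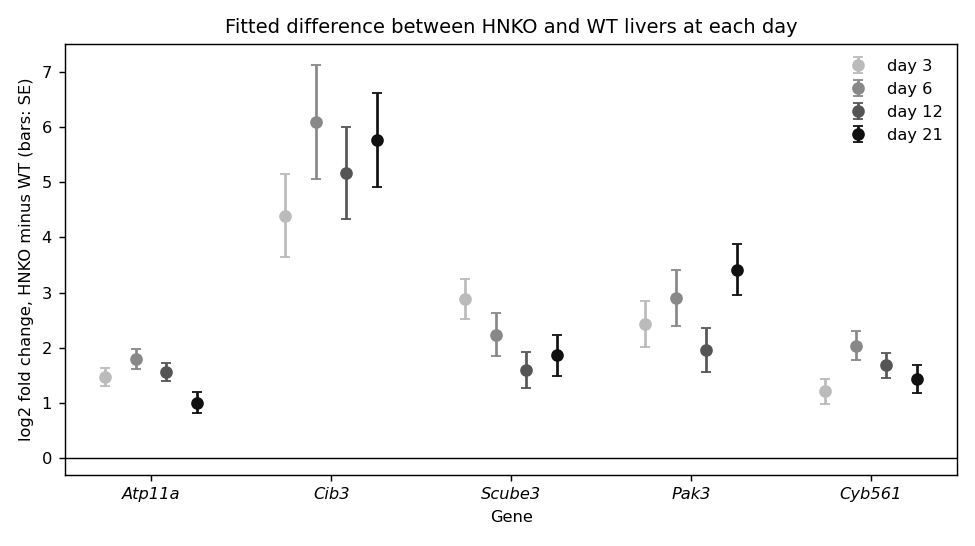
Fitted log2 fold change of HNKO over WT (vertical axis) for each gene (horizontal axis) at each day (grey shades), with bars for 1 SE. All 20 values lie above 0, from 1.0 for Atp11a at day 21 to 6.09 for Cib3 at day 6.

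The genotypes were thus without overlap in 19 of the 20 combinations of gene and day, which is what the choice of genes required. Over all 20297 genes tested, every HNKO library was above every WT library for 2.31%, 8.08%, 2.65% and 7.25% at days 3, 6, 12 and 21, and for 0.379% at all 4 days. Within the 2 label series taken apart, HNKO was higher than WT in 7 of 7 combinations of day and series for each gene, with differences of 0.98 to 1.78 log2 CPM for Atp11a and of 3.58 to 7.40 for Cib3. Such a split reuses the livers and the difference that chose the genes, so it is a description and no separate support. Series 1 held no HNKO liver used at day 21.

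The order of the 8 group means placed the 4 HNKO groups above the 4 WT groups for each gene. Among the HNKO groups, day 3 came highest for Atp11a and Scube3, day 6 for Cyb561, and day 21 for Cib3 and Pak3, but every HNKO group overlapped its neighbour in that order. By edgeR's test of a genotype by day interaction, 0 genes had an adjusted p under 0.05, so a dependence on day was not shown. The lowest HNKO group lay clear of the highest WT group for Atp11a, Cib3, Pak3 and Cyb561 and overlapped it for Scube3.

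Whether the 5 genes rise together in the same livers was examined within each genotype. Levels were taken as log2 CPM minus the mean of the day and genotype, which leaves the difference that chose the genes out, and 45 relations per genotype were tested by permuting livers within days (2-sided, Benjamini-Hochberg adjusted). In HNKO livers the genes fell into a set of 3 and a pair. Cib3 and Scube3 (r = 0.79, rho = 0.78, permutation p = 0.00028, adjusted p = 0.0021, n = 19), Cib3 and Pak3 (r = 0.77, rho = 0.74, permutation p = 0.00121, adjusted p = 0.00495) and Scube3 and Pak3 (r = 0.85, rho = 0.81, permutation p = 3e-05, adjusted p = 0.000675) were related. Atp11a and Cyb561 were related to each other (r = 0.82, rho = 0.85, permutation p = 0.00037, adjusted p = 0.00238). The other 6 pairs had r between -0.01 and 0.42 and did not pass. Without the 2 livers farthest from the median, the 4 related pairs had r = 0.83, 0.85, 0.78 and 0.86 in the same order.

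The same 3 genes followed Col1a1. Across the 19 HNKO livers, r with Col1a1 was 0.90 for Cib3 (rho = 0.91, permutation p = 1e-05, the smallest the permutations can give, adjusted p = 0.00045), 0.84 for Pak3 (rho = 0.83, permutation p = 0.00014, adjusted p = 0.00126) and 0.83 for Scube3 (rho = 0.82, permutation p = 0.0001, adjusted p = 0.00112). For Cyb561 and Atp11a it was 0.31 and 0.13 (adjusted permutation p = 0.366 and 0.681). With 2 livers left out as above, the first 3 values were 0.88, 0.76 and 0.75. Those of Cyb561 and Atp11a became 0.51 and 0.32 (unadjusted permutation p = 0.0599 and 0.229). Leaving out 1 library at a time moved the value of Cyb561 between 0.17 and 0.50. Within label series 1 (8 livers) and series 2 (11 livers), r with Col1a1 was 0.95 and 0.98 for Cib3, 0.85 and 0.84 for Pak3, and 0.88 and 0.88 for Scube3. By unadjusted permutation p within a series, Cib3 passed in both (p = 0.0272 and 0.00446), Scube3 in series 2 (p = 0.0252) and not in series 1 (p = 0.0546), and Pak3 in neither (p = 0.0821 and 0.0812). With libraries 17 and 18 included, the value was 0.89 for Cib3 and fell to 0.48 for Pak3 and 0.47 for Scube3. Fewer cells of a type and less RNA per cell cannot be told apart in whole liver.

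The relations with Spp1 also passed for these 3 genes and for neither of the other two. For Spp1, r was 0.82 with Cib3 (rho = 0.84, permutation p = 0.00046, adjusted p = 0.00259), 0.72 with Scube3 (rho = 0.76, permutation p = 0.00155, adjusted p = 0.00547) and 0.66 with Pak3 (rho = 0.64, permutation p = 0.00716, adjusted p = 0.0201). With Cyb561 and Atp11a it was 0.36 and 0.21 (adjusted permutation p = 0.355 and 0.558). Left without the 2 farthest livers, the first 3 values were 0.76, 0.61 and 0.64. Those of Cyb561 and Atp11a were then 0.33 and 0.05 (unadjusted permutation p = 0.196 and 0.867). Leaving out 1 library at a time moved the value of Cyb561 between 0.17 and 0.50. Series 1 and 2 gave 0.95 and 0.91 for Cib3, 0.60 and 0.74 for Scube3, and 0.63 and 0.62 for Pak3. Within series, Cib3 passed in both (unadjusted permutation p = 0.0136 and 0.0183), and Scube3 (p = 0.235 and 0.0801, permutation test) and Pak3 (p = 0.0833 and 0.264, permutation test) passed in neither. Centred by day and series, Cib3 (r = 0.91) and Scube3 (r = 0.70) passed (unadjusted permutation p = 0.00058 and 0.0323). Pak3 did not pass in this form (r = 0.63, unadjusted permutation p = 0.0534). That the set of 3 differs from the pair in these relations was not tested.

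**Figure D3:**
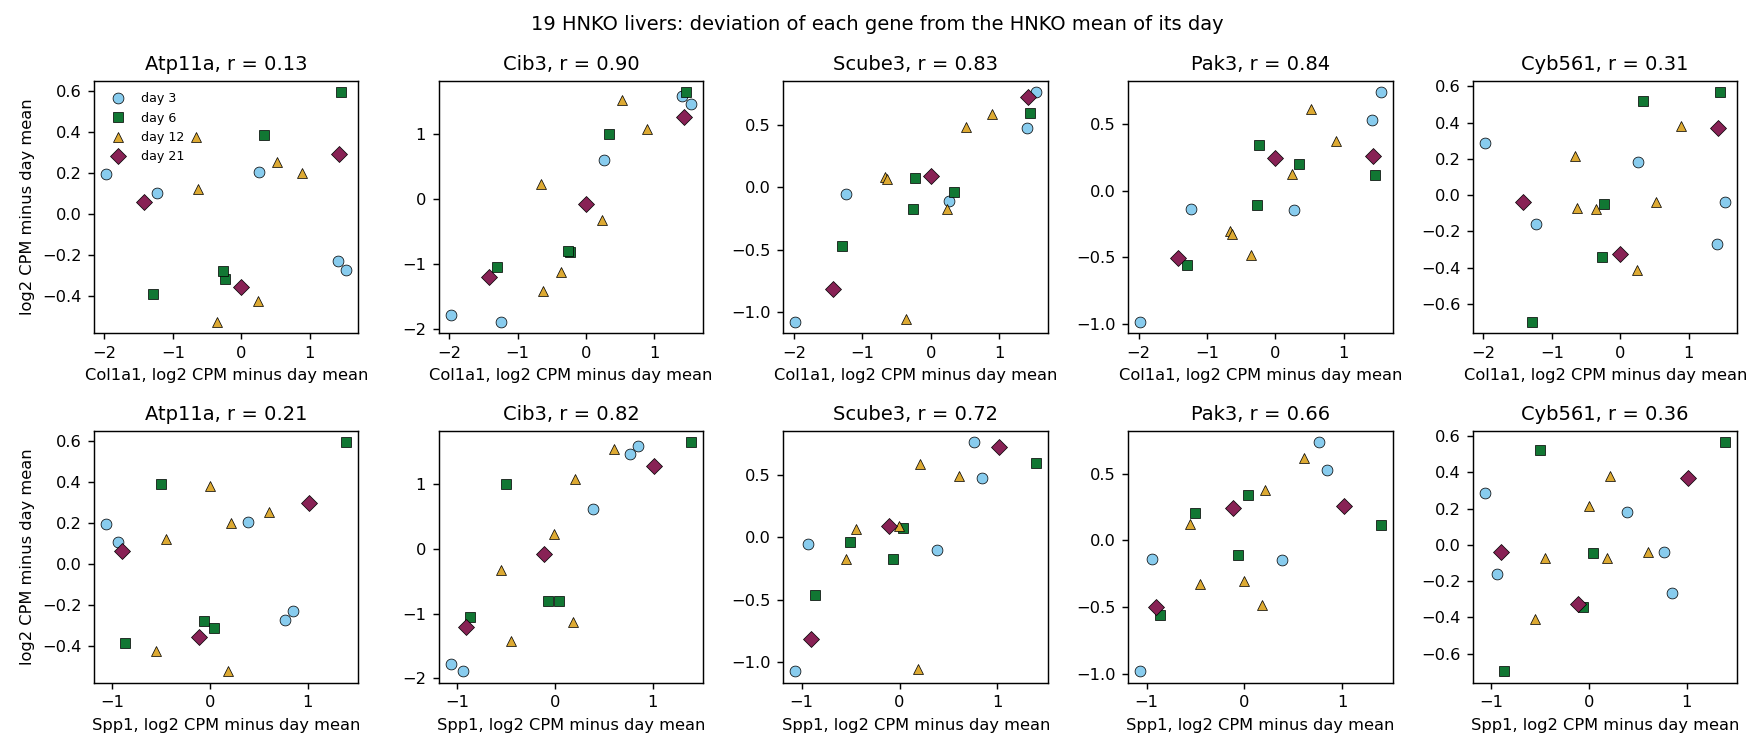
Level of each gene in the 19 HNKO livers (vertical axes, log2 CPM minus the HNKO mean of the day) against Col1a1 (upper row) or Spp1 (lower row) on the same scale (horizontal axes), with symbols for the day. Points for Cib3, Scube3 and Pak3 rise with Col1a1 (r = 0.90, 0.83 and 0.84), and those for Atp11a and Cyb561 scatter (r = 0.13 and 0.31).

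In the 19 WT livers, 0 of the 45 relations passed the adjusted permutation test, and 4 had an unadjusted p under 0.05. Pak3 had 0 to 7 counts in these livers, too few to show a relation, so its relations are not compared between genotypes. WT values of r with Col1a1 were -0.16 for Cib3 and 0.29 for Scube3. The difference in r between genotypes passed the test for Col1a1 with Cib3 (1.06, permutation p adjusted over 10 relations = 0.000600), where the WT levels of Cib3 rested on 4 to 147 counts (5 to 27 for Scube3). It did not pass for Col1a1 with Scube3 (0.54, adjusted p = 0.114), Spp1 with Cib3 (0.57, adjusted p = 0.073) or Spp1 with Scube3 (0.32, adjusted p = 0.295).

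Marker lists of liver cell types were set beside the 5 genes as the mean log2 CPM of each list. The stellate cell and myofibroblast list was related to Scube3 (r = 0.86, adjusted permutation p = 0.00112), Pak3 (r = 0.77, adjusted permutation p = 0.00547) and Cib3 (r = 0.76, adjusted permutation p = 0.00579) in HNKO livers. Hepatocyte markers fell as Cib3 (r = -0.76, adjusted permutation p = 0.003) and Scube3 (r = -0.70, adjusted permutation p = 0.00495) rose, and Pak3 passed by rho (rho = -0.64, adjusted permutation p = 0.0265) and not by r (r = -0.59, adjusted permutation p = 0.0534). Atp11a was related to the macrophage list (r = 0.64, adjusted permutation p = 0.0168), with r = 0.20 in series 1 and 0.74 in series 2. Over all 19 HNKO livers, no gene was related by r to the cholangiocyte or endothelial list, although Scube3 and the cholangiocyte list passed by rho (r = 0.51, rho = 0.60, adjusted permutation p = 0.1 for r and 0.0339 for rho), with r = 0.59 in series 1 and 0.76 in series 2. Without livers 35 and 29, the farthest from the median of the cholangiocyte list, r was 0.64 for Scube3 and 0.66 for Pak3 (unadjusted permutation p = 0.0168 and 0.0223). It was then 0.40 for Cib3, -0.27 for Atp11a and -0.12 for Cyb561 (unadjusted permutation p = 0.235, 0.277 and 0.642). Cyb561 passed with none of the 5 lists. Its r with the macrophage list was 0.49 (adjusted permutation p = 0.0737), with 0.10 in series 1 and 0.79 in series 2. With the stellate list r was 0.32, and 0.55 without livers 22 and 23 (unadjusted permutation p = 0.035). Altogether 16 of 45 relations passed by r in HNKO livers, 14 of them positive, and 18 passed by rho.

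**Figure D4:**
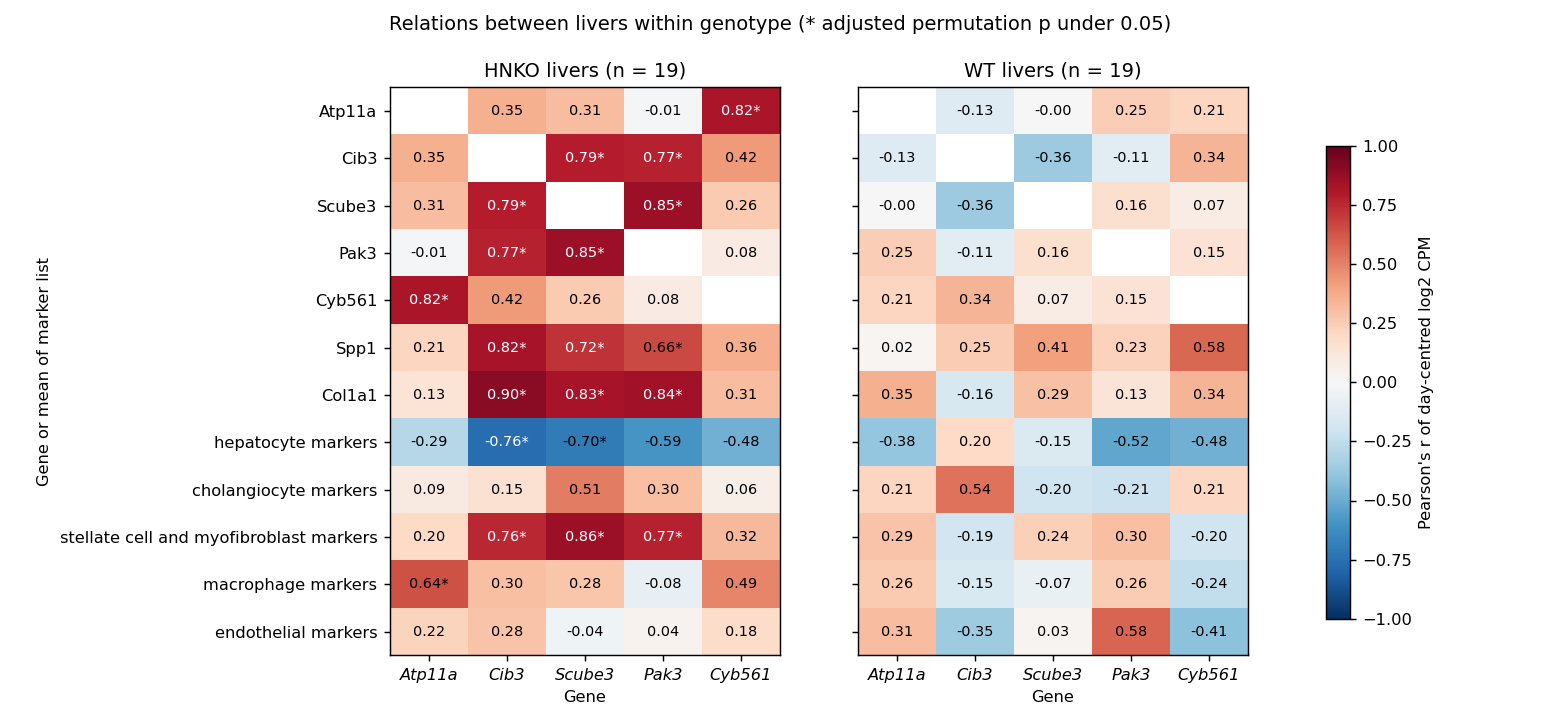
Pearson's r of day-centred log2 CPM between the 5 genes (columns) and the same genes, Spp1, Col1a1 and the mean of each marker list (rows) in 19 HNKO (left) and 19 WT livers (right), from -1 (blue) to 1 (red), with an asterisk where the adjusted permutation p is under 0.05. The asterisks number 16 relations in HNKO and 0 in WT livers, and pairs of the 5 genes appear on both sides of the diagonal.

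The marker lists were also compared between genotypes, beside the 18.7% of all 20297 genes called by edgeR at 1 day or more. Summed stellate and myofibroblast markers were 505 to 645 CPM in WT and 443 to 1273 CPM in HNKO livers, and 5 of 8 markers were called at 1 day or more, 4 higher and 1 (Reln) lower. The cholangiocyte sum was 60.1 to 86.6 CPM in WT and 74.4 to 158.8 CPM in HNKO livers, with 6 of 7 tested markers higher. Of 8 macrophage markers, 3 were higher and 1 lower. The counts for hepatocytes (2 of 8, Alb and Ttr lower at day 6) and endothelium (2 of 8, Vwf higher and Kdr lower) were near the share over all genes. A call at 1 day or more held whichever library was left out for 4 of the 6 cholangiocyte markers (Krt7, Epcam, Cftr and Pkhd1), 2 of the 5 stellate markers (Pdgfrb and Col3a1), 2 of the 4 macrophage markers (Lyz2 and Cd163) and none of the hepatocyte or endothelial markers. Krt19 was called at day 12 alone, with a log2 fold change of 2.74, or 0.82 and not called without HNKO library 35, which had the highest cholangiocyte score of the 38 livers. The median log2 fold change over days was -0.01 to 0.10 for the endothelial list and 0.53 to 0.96 for the stellate list. No tested marker was at 0 in every library of a group. The part of these markers in the levels of the 5 genes was not tested.

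The genes most like each of the 5 were taken by r over the 19 HNKO livers, among tested genes whose mean level reached 1 log2 CPM, as a description. Cib3 was most like Sparc, a collagen-binding matrix protein (r = 0.96), followed by Haus8, Prcp, Ciita and Osbpl3. Pak3 was most like Robo2 (r = 0.90), Col3a1, Pdgfrb, Itgax and Parp8, of which Col3a1 encodes type III collagen and Pdgfrb a growth factor receptor of stellate cells. Scube3 was most like Gbp9 (r = 0.91), Myof, Gm42679, Olfr1372-ps1 and Robo2. Atp11a was most like Actg1, a cytoplasmic actin (r = 0.88), then Pelp1, Jak3, Thoc5 and Atp2b1, whereas Cyb561 was most like Armc9 (r = 0.87), Ppp1r14b, Il17ra, Atp11a and Mid1. Among those genes, 0.4%, 0.937% and 0.144% had a higher r than Col1a1 with Cib3, Scube3 and Pak3, compared with 38.5% for Atp11a and 20.5% for Cyb561. More genes had a higher r than Spp1, namely 2.23%, 3.95% and 3.5% with Cib3, Scube3 and Pak3. For Atp11a this share was 31.5%, and for Cyb561 it was 16.3%, which is below that for Col1a1.

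Related genes of each of the 5 were compared between genotypes by edgeR's quasi-likelihood test over all genes, which called 18.7% of genes at 1 day or more. It called 2.95%, 8.42%, 4.56% and 2.21% of genes higher and 1.71%, 4.37%, 3.27% and 0.916% lower at days 3, 6, 12 and 21, and 0.823% higher at all 4 days. Of 23 tested flippases, their subunits and scramblases, 9 were called, and all 9 were higher. Atp10a, another flippase, rose at all 4 days, with log2 values of 1.48 (SE 0.26, edgeR adjusted p = 0.00171), 1.79, 1.48 and 1.27. The call at day 21 was lost without HNKO library 37 (edgeR adjusted p = 0.269). Atp8b4 rose by 1.26 at day 6 and 0.79 at day 12, Atp8a1 by 0.52 and 0.35, and the scramblase Plscr1 by 1.03 at day 6. At day 12 the Atp8b4 call was lost without WT library 16, 33 or 34 or HNKO library 12 or 13, and that of Atp8a1 without WT library 14, 33 or 34 or HNKO library 35. The median log2 fold change of the list was 0.13, 0.08, 0.24 and 0.11 at days 3, 6, 12 and 21, beside 0.01, -0.01, 0.002 and -0.01 over all genes tested. With libraries 17 and 18 included 3 genes of the list were called, and Atp8b4, Atp8a1 and Plscr1 were called at no day. With each day fitted alone 5 were called, and the calls of Plscr1 at day 6 and of Atp8b4 and Atp8a1 at day 12 were lost.

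Within the SCUBE and hedgehog list, 8 of 15 tested genes were called, 7 higher and 1 lower. Scube1, of the same family as Scube3, rose at all 4 days, by 2.47 (SE 0.55, edgeR adjusted p = 0.00885), 1.93, 2.43 and 2.08 on the log2 scale. Its call at day 6 was lost without WT library 8, 10 or 28 or HNKO library 7 or 29, and that at day 21 without any 1 of the 5 WT livers or HNKO library 37. The ligand Ihh rose at day 12 by 2.19 (SE 0.37, edgeR adjusted p = 0.000800) and the co-receptor Boc at day 6 by 2.58, whereas Hhip, which encodes a hedgehog-binding inhibitor, fell by 1.13 at day 3 and by 1.08 at day 12 on the log2 scale. The Hhip call at day 3 was lost without HNKO library 2, and with libraries 17 and 18 included this call and that of Scube1 at day 6 were lost. Cdon, Gli3, Smo and Sufu were higher at day 6, but Gli3, Smo and Sufu lost their calls without HNKO library 29, and Sufu also without WT library 8 or 10 or HNKO library 7 or 30. With each day fitted alone, the calls of Sufu and of Scube1 at day 21 were lost. Shh and Scube2 were below the filter on low counts, with 194 and 51 counts in HNKO day 12 library 35 and at most 11 and 3 in any other library used. The list had a median log2 fold change of 0.68 at day 6 and 0.13 at day 21.

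Among the p21-activated kinases, their GTPases and partners, 5 of 20 tested genes were called, all higher, a share near the 18.7% over all genes. Pak6 rose at all 4 days, by log2 values of 2.62 (SE 0.43, edgeR adjusted p = 0.000949), 1.58, 1.502 and 1.69, and Pak1 by 0.88, 0.86 and 0.86 at days 3, 6 and 12. At day 21 the log2 fold change of Pak1 was 0.91 and was not called. Arhgef6, an exchange factor for Rac, and Rhoj and Rac2, small GTPases, were higher at day 6, Rac2 not without HNKO library 29. With each day fitted alone, the calls of Rhoj (edgeR adjusted p = 0.0797), of Pak6 at day 6 and of Pak1 at day 3 were lost. The Pak6 call was lost at day 6 without WT library 10 or 27 or HNKO library 29, and at day 21 without WT library 19, 20, 21 or 41 or HNKO library 37. Pak1 lost its call at day 3 without WT library 5, 25 or 26 or HNKO library 2, 3 or 23, at day 12 without WT library 33 or HNKO library 13, and at day 6 without WT library 10 or 28 or HNKO library 7 or 29, and at all 3 days with libraries 17 and 18 included. In the cytochrome b561 list, 4 of 12 tested genes were called, all higher, and the median log2 fold change of the list was 0.05 to 0.20 over the days. Steap2, a metalloreductase, rose at all 4 days, by 0.96 (SE 0.20, edgeR adjusted p = 0.00471), 1.41, 1.03 and 1.02, and Steap4 by 1.80 at day 6 and 0.93 at day 12. The Steap2 call at day 21 was lost without HNKO library 37, and that of Steap4 at day 12 with each day fitted alone (edgeR adjusted p = 0.0512). Frrs1 rose by 0.40 at day 6 and by 0.33 at day 3, where the call was lost without WT library 24, 25 or 26 or HNKO library 2, 3 or 23 or with each day fitted alone, and Steap1 by 4.197 (SE 0.97) at day 6. Of the 3 tested genes of the CIB list, Cib1, Cib2 and Itga2b, 0 were called by edgeR and 0 to 1 with a library left out, and the log2 fold change of Cib2, the relative of Cib3, lay between -0.66 and 0.21.

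**Figure D5:**
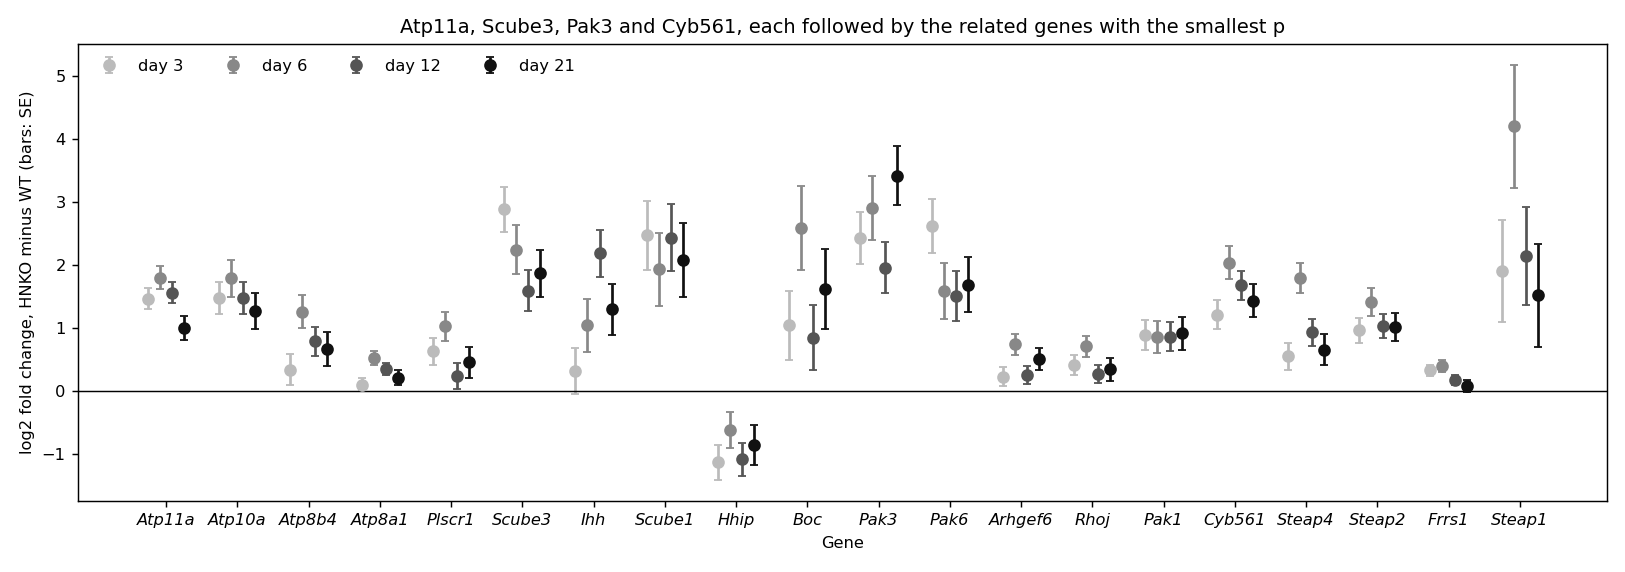
Fitted log2 fold change of HNKO over WT (vertical axis, bars for 1 SE) at each day (grey shades) for Atp11a, Scube3, Pak3 and Cyb561, each followed by up to 4 genes of its list with the smallest p (horizontal axis). Every plotted gene lies above 0 at each day except Hhip, which lies below 0. Of the related genes plotted, Atp10a, Scube1, Pak6 and Steap2 were called at each day.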

How the data were processed

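RNA from 40 whole livers was sequenced as 51-bp paired ends after rRNA depletion. The authors aligned reads with STAR 2.7.2b to GRCm38 and counted fragments per gene with featureCounts 1.6.4. The deposited values are raw counts, not normalized. Libraries 17 and 18 failed quality control in the study and were left out of the main fit, and the groups came from the labels. Where nothing more is stated, 1 library is taken as 1 mouse.

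Counts were fitted with edgeR 4.0.16 (R 4.3.3) in its older quasi-likelihood computation, with TMM scaling, 1 group per genotype and day over 38 libraries, and a filter (filterByExpr, minimum count 10) that kept 20297 genes. Adjusted p-values are Benjamini-Hochberg over those genes, with a threshold of 0.05. Levels are log2 CPM with a prior count of 2, and RPKM used exon lengths from GENCODE. Relations used 100000 permutations within days (20000 with a library left out). Cell type scores are means of the tested markers among 8 listed. DESeq2 1.42.0 was an alternative. On simulated data for these comparisons, with 200 of 19896 genes changed by a log2 fold change of 2, 91.5%, 88.5%, 91% and 86% were recovered at days 3, 6, 12 and 21. At these days 14, 14, 15 and 9 unchanged genes were called as well.

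The members and the gene lists were chosen with earlier results of these data known. Related genes with values are those called at any day, at most 4 per list by smallest p, and 5 like genes are named per member. Other genes are named after their values were seen. Protein sequences were not analysed here. Floors cover counting error only, whereas the SEs come from the edgeR fit and include variation between livers.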

Additional observations from a re-analysis of the deposited data

Results flagged for a closer look

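Each of the 5 genes was also read in libraries 17 and 18, the HNKO day 21 livers that failed quality control in the study and that did not enter the choice of genes. On a scaling over all 40 libraries, Atp11a was at 6.43 and 6.00 log2 CPM, where the highest WT liver of day 21 was at 4.51. Cib3 was at 4.07 and 5.35, with the highest WT liver at 1.21, and Cyb561 at 3.95 and 3.31, with the highest WT liver at 2.35. In library 18, Scube3 (92 counts) was at 2.36 and Pak3 (12 counts) at -0.44, above all WT livers of that day (-0.04 and -1.98 at most). Library 17 held 0 counts of Scube3 and of Pak3 among 12287423, which allows up to 0.244 CPM. For Scube3 this lies below the lowest WT liver of day 21 (0.411 CPM), opposite to library 18, and for Pak3 it lies above the highest (0.177 CPM). These 2 libraries had total counts of 12287423 and 15935527, below all others.

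In 3 of 35 combinations of gene and group with 4 to 6 livers, 1 WT liver stood far from the rest, against about 1 in 20 by chance. Library 5 (WT day 3) was at 4.12 log2 CPM for Atp11a, library 16 (WT day 12) at -3.80 for Pak3, with 0 counts, and library 41 (WT day 21) at 0.85 for Cyb561. Each was the lowest WT liver of its group.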

How the results depend on the processing

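No paired analysis was possible because each library has its own number and no number is shared between groups. The log2 fold changes of the 5 genes moved by less than 1 SD between replicates in 167 of 168 alternative values that left no used library out. The exception was Atp11a at day 21, at 1.44 with all 40 libraries. A minimum of 10 counts in every library removed Cib3, Scube3 and Pak3.

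With a library left out, the log2 fold change ranged at days 3, 6, 12 and 21 from 1.41 to 1.54, 1.65 to 1.90, 1.48 to 1.65 and 0.86 to 1.18 for Atp11a. For Cib3 it ranged from 4.02 to 4.67, 5.53 to 6.30, 4.77 to 5.74 and 4.91 to 6.62. Genes called ranged from 322 to 1668, 1126 to 3027, 852 to 1773 and 13 to 915, beside 945, 2596, 1588 and 634. The lowest count at day 21 came without HNKO library 37. DESeq2 called 1426 genes at day 3 and 994 at day 21, a fit of all 40 libraries 331, 1321, 624 and 1350, and a fit of a day's 2 groups alone 420, 1325 and 867 at days 3, 6 and 12. Of the lists, flippases had 3 genes called with all 40 libraries and 5 with a day's groups alone (7 to 11 with a library left out), and the SCUBE list 5 with at least 10 counts in every library. The CIB list had 0 to 1.

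For relations, r of Spp1 with Atp11a turned negative in series 1 (-0.12) and over all 21 HNKO livers (-0.028), and ranged from -0.040 to 0.30 with a library left out, as that of Col1a1 did from -0.046 to 0.25. By unadjusted permutation p, Spp1 lost its relation with Scube3 within series 1 (0.60) and 2 (0.74), and with Pak3 within series 1 (0.63), within series 2 (0.62) and on centring by series (0.63). Col1a1 lost its relation with Scube3 within series 1 (0.88) and with Pak3 within series 1 (0.85) and 2 (0.84), with 8 and 11 livers. Without centring, Spp1 and Cyb561 were related (0.52). Including libraries 17 and 18, Col1a1 had r = 0.47 with Scube3 and 0.48 with Pak3. The causes of these changes were not tested. Low counts limit the precision for Pak3 and Scube3.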
